A study of Equus asinus with 12 samples.

Results

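Gluteal muscle, the mass of muscle that extends the hip, was compared with longissimus dorsi, the long extensor of the back, in donkeys (Equus asinus) of the Sanfen strain, which belongs to the Chinese breed Dezhou. There were 3 libraries of Sanfen gluteal muscle and 3 of Sanfen longissimus, each from an animal aged 24 months, and no treatment is named in the labels. The comparison covers all loci with at least 1 FPKM (a level in fragments, scaled for transcript length and library size) in at least 3 of these 6 libraries. This rule kept 10834 of the 27084 loci listed. The series holds the same 2 muscles from the Wutou strain at the same age, again with 3 libraries each, and its design text gives 6 donkeys for the 12 samples. Which donkey gave which library is not stated in the labels. The p-values below therefore measure only the spread between these libraries, which may be technical.

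Skeletal muscle is built from fibres of different kinds. Slow fibres are rich in mitochondria and burn fat and lactate, while fast fibres rely more on glycogen and glycolysis, and each kind has its own myosins, troponins and calcium pumps. Back and hip muscles also arise at different levels of the body axis, and adult muscle is known to keep traces of that origin in the homeobox (HOX) genes and other positional factors it transcribes.

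All 6 libraries carried skeletal muscle transcripts at high level. The actin ACTA1 ranged from 8919 to 13295 FPKM over the 6 libraries, the creatine kinase CKM from 5666 to 8067 and the giant spring protein titin (TTN) from 2254 to 2829. All 10 lymphocyte markers searched for lay below the filter, and 0 of 8 erythroid markers were kept. Library totals lay between 231193 and 269945 FPKM, with 47.5% to 52.7% of each in its 10 most abundant loci. Read depth is unknown, which leaves no basis for a counting interval. Across the kept loci, which are not independent replicates, the correlation of log2(FPKM + 1) was 0.89 to 0.92 between libraries of the same muscle and 0.90 to 0.94 between libraries of different muscles, so correlations within a muscle were not above those between muscles. The second longissimus library and the first gluteal library stood apart in several gene groups, and results that touch them are also given without them.

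Few single loci separated the muscles beyond the spread between libraries. In limma, a linear model on log2(FPKM + 1) over all 4 groups, 3 loci were higher in gluteal muscle at an adjusted p (Benjamini-Hochberg) under 0.05, which is 0.0277% of the loci tested, and 0 (0.0%) were lower. At an unadjusted p under 0.05, 307 loci (2.83%) were higher and 71 (0.655%) lower. Past a log2 difference of 1, which is a doubling on that scale, lay 60 higher loci (0.554%) and 64 lower ones (0.591%). With the replicate number as a block, 1 locus was called instead of 3, with 523 (4.83%) at an unadjusted p under 0.05 on all 12 libraries and 445 (4.11%) on the 6 Sanfen libraries.

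Small differences leaned towards gluteal muscle. Of all kept loci 7350 (67.8%) had a positive log2 difference, with a median of 0.08 and quartiles of -0.04 and 0.21. The 3 gluteal values all lay above the 3 longissimus values at 687 loci (6.34%) and all below them at 126 (1.16%). This lean moved with the scaling. After median-of-ratios rescaling the median was 0.01, 51.9% of loci were higher, and the counts without overlap were 341 above and 315 below. Counts within gene groups below are therefore set beside these shares.

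**Figure D1:**
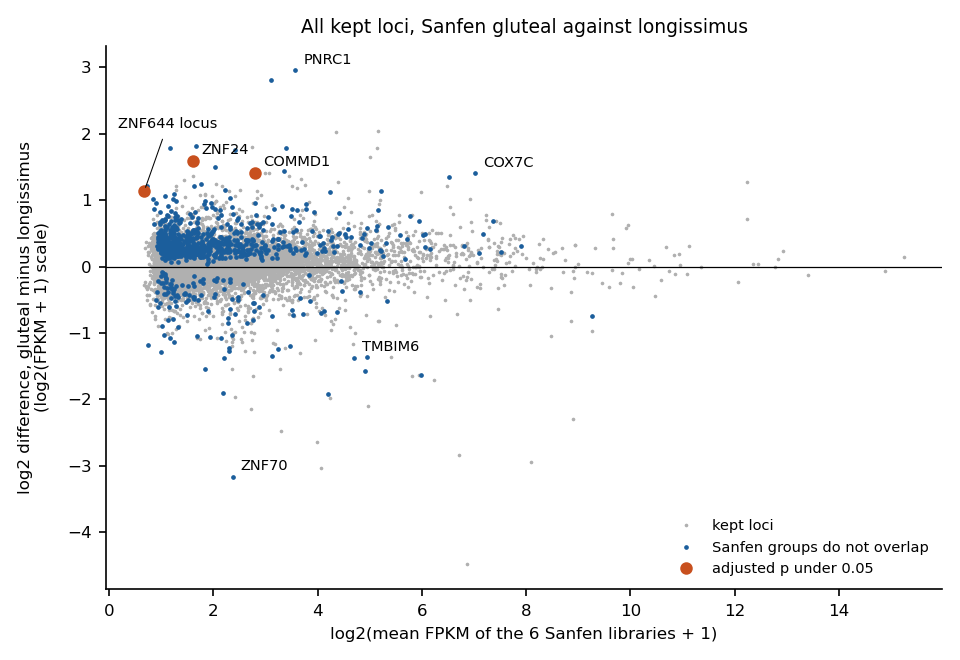
Log2 difference between Sanfen gluteal and longissimus muscle (vertical axis, log2(FPKM + 1) scale) against mean level (horizontal axis, log2 of mean FPKM + 1) for the 10834 kept loci; blue marks loci whose groups do not overlap and orange the 3 loci with an adjusted p under 0.05. PNRC1 at 2.96 and ZNF70 at -3.16 lie far from 0 without passing the test.

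The 3 loci that passed were ZNF24, COMMD1 and an assembled locus that carries the name of ZNF644. ZNF24 (locus MSTRG.16939) encodes a zinc finger transcription factor. Longissimus replicates 1 to 3 gave 0.558, 0.468 and 0.572 FPKM, and the gluteal replicates 3.82, 3.49 and 3.51, the order of replicates used for all values below. The groups are far apart and each is tight, with a ratio of means of 6.77 and a log2 difference of 1.59 (SE 0.16, limma adjusted p = 0.00788). ZNF24 passed the filter through its gluteal libraries only, so it had to differ to enter the comparison. With the replicate block it kept its call in the fit on all 12 libraries (adjusted p = 0.023) and lost it in the fit on the 6 Sanfen libraries (0.15). It was also lost without gluteal replicate 2 (0.063).

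COMMD1 (MSTRG.11045) encodes the founding member of a family of small proteins that take part in copper export, endosomal sorting and NF-kB signalling. Its longissimus values were 2.90, 2.80 and 2.62 FPKM and its gluteal values 10.1, 9.99 and 7.36. Every gluteal library was above every longissimus library by more than 4 FPKM, and the log2 difference was 1.41 (SE 0.17, adjusted p = 0.015). The replicate block ended the call (adjusted p = 0.098 on 12 libraries and 0.45 on 6). So did the fit on the 6 Sanfen libraries alone (0.17) and leaving out any 1 of 5 Sanfen libraries (0.064 to 0.10); without gluteal replicate 3 it stayed at 0.033. A second, assembled locus of the same name (MSTRG.11044) lay below the filter, at 0.0106 to 0.811 FPKM in the 6 libraries.

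ZNF644 encodes another zinc finger protein, and 9 loci carry its name, of which 5 were kept. The one that passed (MSTRG.4504) had a listed value of 0 in each longissimus library, while gluteal muscle had 1.20, 1.26 and 1.13 FPKM (log2 difference 1.13, adjusted p = 0.015), and it too was kept through the gluteal libraries only. The reference locus of the gene (MSTRG.4500) overlapped, at 1.62, 0.853 and 1.25 FPKM in longissimus and 1.75, 1.09 and 1.07 in gluteal muscle. An exact 0 in a table without counts can be a failed estimate, and with several loci of 1 gene reads may be split between them. The call was lost with the block (adjusted p = 0.15 on 12 libraries, 0.67 on 6), with the 6 Sanfen libraries alone (0.19) and without any 1 of the 6 Sanfen libraries (0.064 to 0.10).

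**Figure D2:**
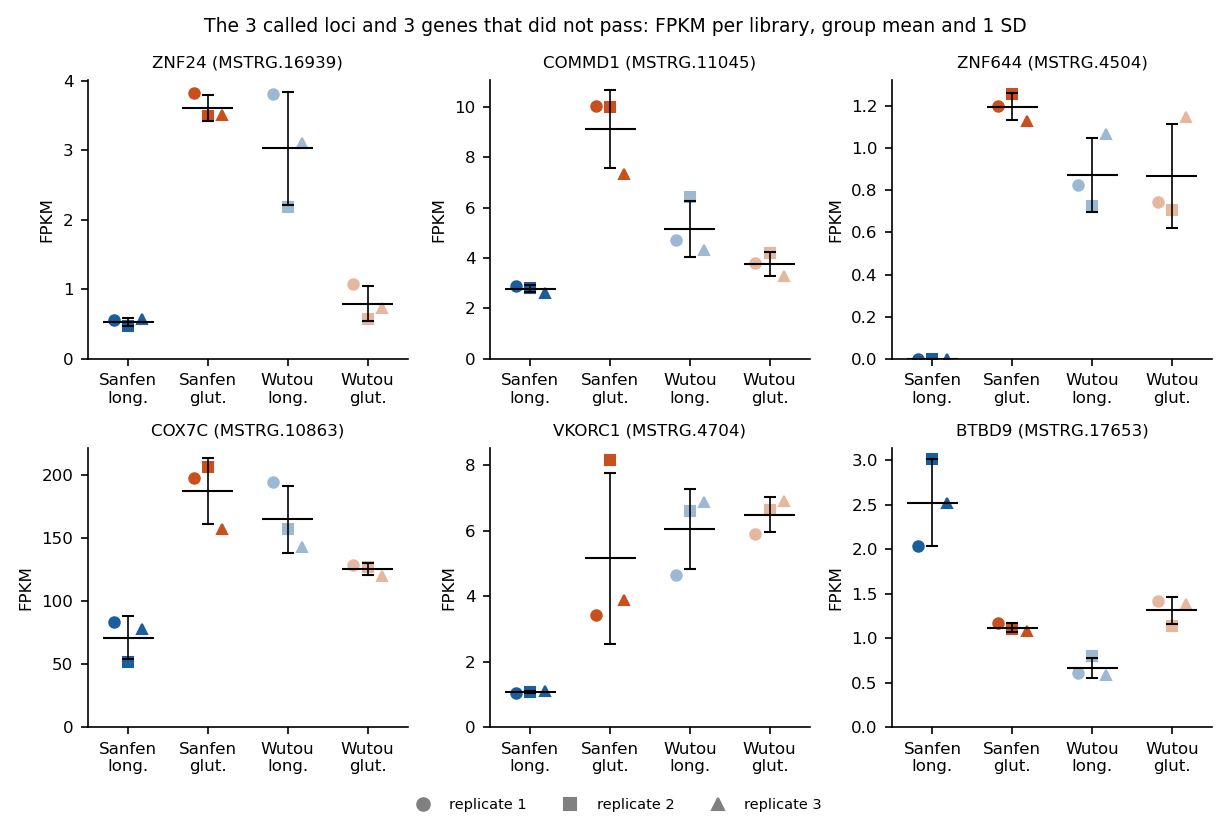
FPKM from 0 (vertical axis) in each library of the 4 groups (horizontal axis; long., longissimus; glut., gluteal) for the 3 loci that passed and for COX7C, VKORC1 and BTBD9, which did not. Symbols mark replicate numbers, bars the group mean and error bars 1 SD (n = 3); ZNF24 lies at 3.49 to 3.82 in Sanfen gluteal and at 2.18 to 3.80 in Wutou longissimus, and below 1.1 in the other 2 groups.

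The muscle difference at ZNF24 had the opposite sign in Wutou. There the longissimus libraries were listed at 3.80, 2.18 and 3.10 FPKM and the gluteal ones at 1.07, 0.575 and 0.734. The difference between the strains in the muscle contrast was tested by the interaction term, which gave a log2 value of 2.74 (SE 0.23, limma adjusted p = 0.00096) and called ZNF24 alone among the 10834 loci (0.00923%). In Wutou, COMMD1 lay at 4.72, 6.44 and 4.32 FPKM in longissimus against 3.81, 4.20 and 3.27 in gluteal muscle. Its interaction did not pass in this fit (limma adjusted p = 0.070). It passed with quantile normalization and with 1 FPKM required in all 6 Sanfen libraries. The ZNF644 locus was present in both Wutou muscles, at 0.725 to 1.07 and 0.709 to 1.15 FPKM.

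Among genes that did not pass, several had wide gaps between the muscles. COX7C (MSTRG.10863), a nuclear subunit of cytochrome c oxidase, measured 83.5, 52.1 and 78.0 FPKM in longissimus and 198, 207 and 158 in gluteal muscle with a wide gap between the groups (log2 difference 1.40, adjusted p = 0.14). VKORC1, the vitamin K epoxide reductase that regenerates the vitamin for blood clotting factors, was steady at 1.05, 1.06 and 1.11 in longissimus and at 3.44, 8.17 and 3.88 in gluteal muscle (1.49, adjusted p = 0.14, and 0.047 with a pseudocount of 0.1). In Wutou, VKORC1 lay at 4.65 to 6.92 FPKM in all 6 libraries of both muscles, so the Sanfen longissimus libraries were the low ones of the series.

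PNRC1, a nuclear receptor coactivator that also takes part in mRNA decapping, had the largest positive log2 difference of the named genes, 2.96. Its longissimus values were 1.25, 1.42 and 2.62 FPKM and its gluteal values 23.0, 18.1 and 19.1. The Sanfen groups were tight, but Wutou longissimus ran from 1.55 to 21.3 FPKM, and the fit that shares its spread over 4 groups gave adjusted p = 0.62. On the 6 Sanfen libraries alone it was 0.014, and with the replicate block on the same 6 it was 0.15. PET100, an assembly factor of cytochrome c oxidase, lay at 10.7, 8.06 and 13.2 against 15.6, 32.3 and 26.9 FPKM (log2 difference 1.12, adjusted p = 0.88), and KANK1, an adaptor at cell adhesions, at 2.30, 3.10 and 2.92 against 6.38, 4.12 and 6.20 (0.79, adjusted p = 0.97).

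Further genes whose gluteal values all lay above the longissimus ones were at moderate level. They include COQ7, an enzyme of coenzyme Q synthesis, at 7.52, 6.22 and 7.09 against 12.4, 9.18 and 9.78 FPKM. MUT, the mitochondrial methylmalonyl-CoA mutase, measured 4.14, 3.80 and 5.0 against 5.81, 6.22 and 5.92, and its Wutou groups did not overlap either (3.49 to 3.81 and 4.56 to 5.33). After median-of-ratios rescaling the Sanfen groups of MUT overlapped. SAP18, RNF25, SRPRB, ANAPC16, REX1BD and DYNLL1 had the same order of groups, with gluteal means between 5.61 and 11.96 FPKM. None of these passed the test.

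**Figure D3:**
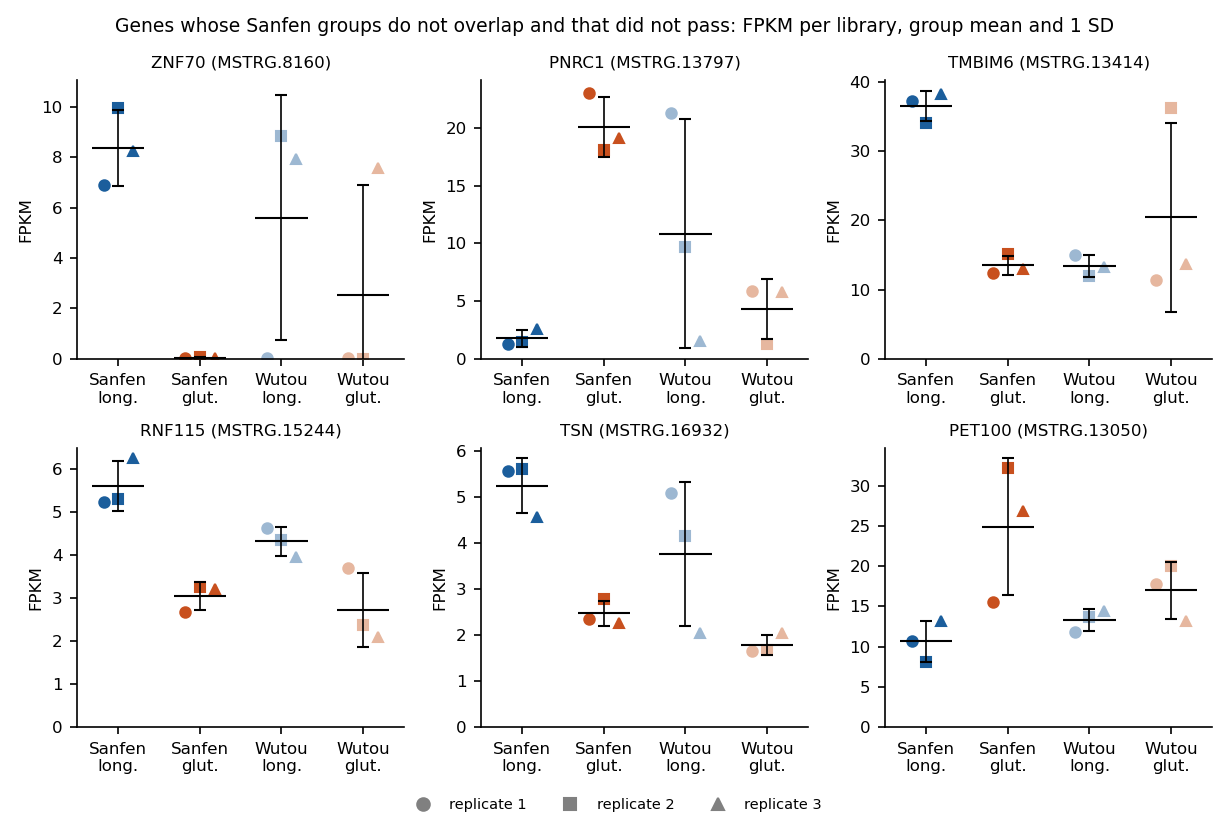
FPKM from 0 (vertical axis) in each library of the 4 groups (horizontal axis) for ZNF70, PNRC1, TMBIM6, RNF115, TSN and PET100, with symbols for replicate numbers, the group mean and 1 SD (n = 3). The Sanfen groups do not overlap in any panel, while the Wutou libraries of ZNF70 are split between values near 0 and values of 7.58 to 8.85.

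In the other direction no locus passed, and the smallest adjusted p was 0.21 (RAPGEF5, named after its values were seen). ZNF70, a zinc finger gene, was listed at 6.90, 9.94 and 8.25 FPKM in longissimus and at 0.0286, 0.0566 and 0.0237 in gluteal muscle (log2 difference -3.16, adjusted p = 0.9998 on 12 libraries). It was kept through the longissimus libraries only. On the 6 Sanfen libraries it passed without the block (adjusted p = 0.0016) and with it (0.026), while in Wutou high and low values stood side by side within a muscle, at 0.0161, 8.85 and 7.92 in longissimus and 0.0492, 0 and 7.58 in gluteal muscle.

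TMBIM6, a membrane protein of the endoplasmic reticulum that protects against cell death, measured 37.2, 34.0 and 38.2 FPKM in longissimus and 12.4, 15.1 and 13.0 in gluteal muscle (log2 difference -1.37, adjusted p = 0.83). In Wutou 5 libraries lay between 11.4 and 15.02 FPKM and gluteal replicate 2 at 36.2, and without that library TMBIM6 passed (adjusted p = 0.025). BTBD9, a BTB domain protein, lay at 2.04, 3.01 and 2.52 against 1.17, 1.1 and 1.08 FPKM (-0.73, adjusted p = 0.24). RNF115, a ubiquitin ligase, measured 5.24, 5.30 and 6.26 against 2.66, 3.26 and 3.22 (-0.71, adjusted p = 0.83), and its Wutou gluteal libraries also lay below the longissimus ones (2.09 to 3.69 and 3.96 to 4.63). TSN, the nucleic acid binding protein translin, was at 5.58, 5.63 and 4.57 against 2.35, 2.79 and 2.27 FPKM (-0.85, adjusted p = 0.9998).

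Of the other lower genes, 3 kept separate groups in both strains. SRPK3, a muscle kinase of splicing factors, was at 13.0, 18.9 and 16.7 FPKM in Sanfen longissimus and 9.70, 12.3 and 10.8 in gluteal muscle. CDK9, the kinase that releases paused RNA polymerase II, was at 22.5, 24.3 and 25.9 against 19.8, 14.5 and 10.8. HDGF, a heparin-binding growth factor, was at 12.2, 13.8 and 13.5 against 6.72, 5.72 and 10.9. RNF103, FOXK2, MAZ, DNAJB9, ST6GALNAC4, LDOC1L, ARHGDIG and TOMM20 completed the set named by smallest p, and none of these passed.

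Nuclear genes of the respiratory chain lay higher in gluteal muscle almost without exception, by small amounts. The respiratory chain passes electrons through complexes I to IV of the inner mitochondrial membrane and ATP synthase uses the resulting gradient to make ATP. Of 77 kept subunits of the 5 complexes, 75 had a positive log2 difference, against 67.8% of all loci, and their median was 0.35 against 0.08. None passed. Groups did not overlap at 10 of them (13.0%), gluteal above in each case, beside 6.34% of all loci. After median-of-ratios rescaling 71 were higher, with a median of 0.25, against 51.9% of all loci.

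Complex I, which takes electrons from NADH, had 37 of 37 kept members higher, with a median of 0.37. NDUFS8, an iron-sulfur subunit, measured 41.4, 46.2 and 47.3 FPKM in longissimus and 108, 62.2 and 57.3 in gluteal muscle (log2 difference 0.69, adjusted p = 0.9998). NDUFA7 was at 33.1, 20.6 and 28.2 against 41.9, 44.8 and 33.9, and NDUFB4 overlapped, at 64.7, 30.3 and 30.5 against 69.4, 71.3 and 63.1 with longissimus replicate 1 among the gluteal values. Complex II, the succinate dehydrogenase, had 4 of 4 members higher (median 0.27), with SDHB at 82.7, 60.9 and 90.6 against 112, 91.0 and 83.4 FPKM.

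Complex III, which hands electrons to cytochrome c, had 8 of 9 members higher (median 0.27). Its UQCR10 measured 38.7, 20.6 and 41.3 FPKM against 53.3, 86.2 and 38.1, with overlap. CYC1, the cytochrome c1 subunit, was named after its values were seen and had little spread, at 169, 167 and 169 against 217, 190 and 183. Complex IV, which reduces oxygen, had 12 of 13 higher and the highest median of these lists, 0.41. Beside COX7C, the muscle form COX7A1 was at 76.6, 30.4 and 99.3 against 134, 115 and 99.3 FPKM, and COX8A, the widely expressed form of its subunit, was low throughout, at 1.80, 0.795 and 0.537 against 3.54, 4.77 and 2.95. ATP synthase had 14 of 14 kept members higher (median 0.37), among them ATPIF1, the inhibitor that stops the enzyme from running backwards, at 23.0, 10.4 and 23.9 against 28.4, 25.8 and 26.8.

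Part of this distance lay in 1 library. The mean level over the complex I members, relative to the mean of the 6 libraries on the log2 scale, was 0.06, -0.63 and -0.01 for longissimus and 0.45, 0.19 and -0.04 for gluteal muscle. For complex IV the values were 0.02, -0.83 and -0.02 against 0.51, 0.33 and -0.01. Without longissimus replicate 2, 65 of the 77 subunits were higher and their median was 0.19, against 69.3% of all loci. Without gluteal replicate 1, 69 were higher with a median of 0.25, against 60.2% of all loci. In Wutou 32 of the same 77 were higher in gluteal muscle, with a median of -0.05.

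**Figure D4:**
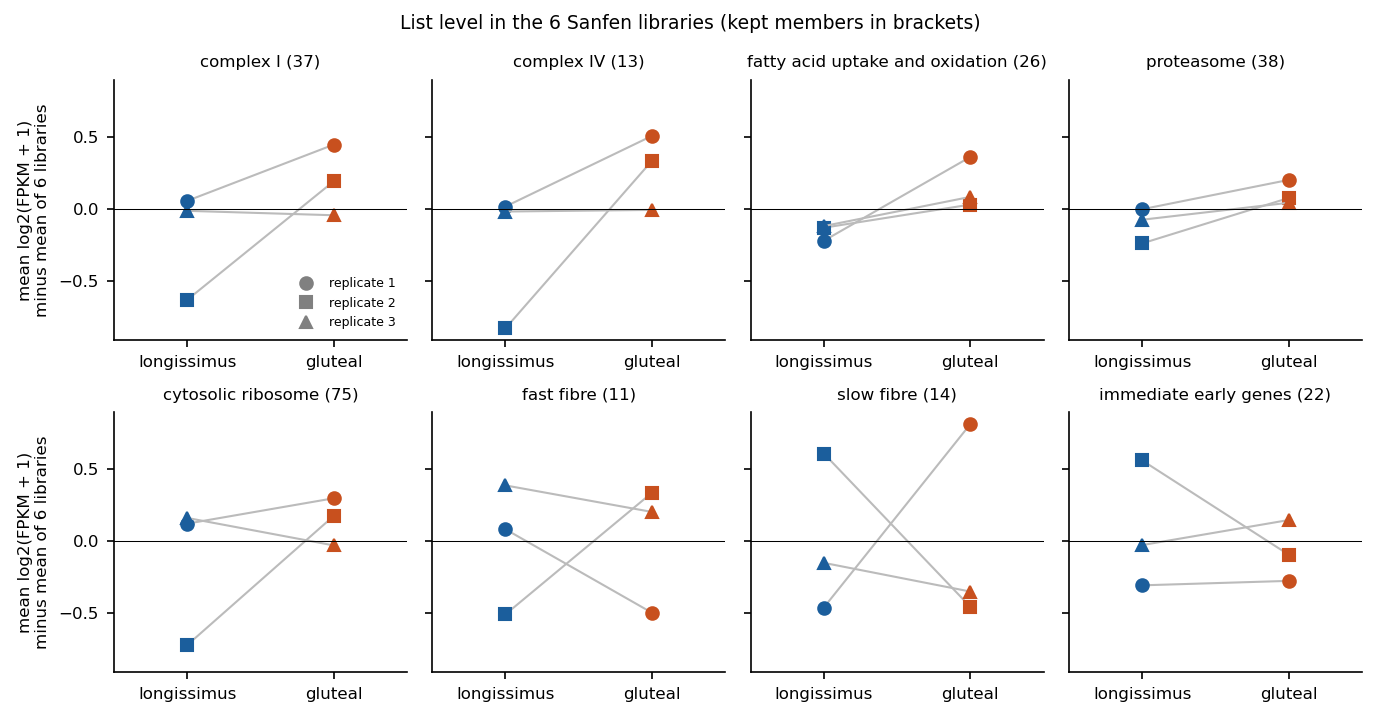
Mean level of 8 gene lists in the 6 Sanfen libraries (vertical axis, mean log2(FPKM + 1) over kept members minus the mean of the 6 libraries), with lines joining libraries that share a replicate number. Longissimus replicate 2 is the lowest library for complex I, complex IV and the ribosome, and gluteal replicate 1 the highest for slow fibre genes. On this deposited scale, without rescaling, the groups are separate for fatty acid genes and the proteasome.

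Genes of fatty acid uptake and oxidation were also mostly higher, and here the low longissimus library had no such part. Of 26 kept members 23 were higher, with a median of 0.27, and 6 had gluteal values all above the longissimus ones (23.1%, beside 6.34% of all loci). After rescaling 20 were higher with a median of 0.17, and 5 were separate, beside 341 of all 10834 loci. Without longissimus replicate 2 the median was 0.37, with 22 higher, and without gluteal replicate 1 it was 0.22, with 19 higher. The level of the whole list was -0.22, -0.13 and -0.12 for longissimus and 0.36, 0.03 and 0.08 for gluteal muscle. The groups were thus separate on the deposited scale, and this level was not recomputed after rescaling. In Wutou 18 of the 26 were higher, with a median of 0.21. No member passed.

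Members of this list span the path from the cell surface to acetyl-CoA. CD36, the fatty acid transporter of the muscle membrane, measured 10.4, 9.55 and 9.47 FPKM in longissimus and 23.4, 13.6 and 18.6 in gluteal muscle. SLC27A4, another transporter, was at 2.66, 2.59 and 2.26 against 3.67, 3.63 and 3.47 (log2 difference 0.39, adjusted p = 0.9998) and was separate in Wutou as well, at 2.39 to 2.90 against 3.21 to 3.82. In the mitochondrion, ECI1, an isomerase for unsaturated chains, was at 11.8, 15.1 and 11.8 against 17.4, 15.8 and 21.3 (0.46, adjusted p = 0.9998). The thiolase ACAA2, which cuts off acetyl-CoA, was at 12.8, 11.7 and 19.4 against 28.8, 20.4 and 28.9 (0.80, adjusted p = 0.9998). ETFDH, which passes the electrons of fat oxidation to coenzyme Q, measured 6.50, 6.24 and 7.21 against 9.28, 9.40 and 8.76, and ACAT1, a mitochondrial thiolase of ketone and isoleucine metabolism, 17.4, 14.6 and 17.7 against 24.3, 22.2 and 24.8. Like most of the list, the carnitine shuttle enzymes overlapped: CPT1B was at 6.86, 16.0 and 5.89 against 10.4, 8.98 and 9.33 and CPT2 at 8.46, 15.5 and 8.60 against 13.6, 9.17 and 8.73. CD36, ETFDH, ACAT1, CPT1B and CPT2 were named after their values were seen.

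Fat cells between the fibres also transcribe some of these genes, and in bulk tissue fewer cells of a type and less RNA per cell cannot be told apart. Of 12 adipocyte markers 9 were kept, 5 of them higher in gluteal muscle (median 0.05), and their summed FPKM was 24.9 to 34.7 in longissimus and 29.4 to 66.7 in gluteal muscle. In that list PLIN4, a lipid droplet protein that muscle fibres make too, was at 10.1, 9.42 and 10.2 against 42.8, 9.84 and 37.6 FPKM (log2 difference 1.27, adjusted p = 0.9998). ADIPOQ, the defining adipocyte hormone, lay the other way, at 2.33, 5.2 and 3.39 against 2.65, 0.355 and 1.53 with overlap. Their part in the fatty acid result was not tested.

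The citrate cycle, glycolysis and glycogen genes showed less. Of 22 kept citrate cycle genes 17 were higher (median 0.12), with IDH2 at 68.7, 86.3 and 74.97 FPKM in longissimus and 99.6, 80.5 and 98.2 in gluteal muscle. After rescaling 11 of the 22 were higher. Of 18 glycolysis genes 12 were higher (median 0.08). Without longissimus replicate 2 this was 6, with a median of -0.09, against 69.3% of all loci. SLC16A3, the lactate exporter of fast fibres, was at 9.31, 2.52 and 11.7 against 12.2, 13.4 and 13.6. LDHB, the lactate dehydrogenase form of oxidative tissue (named after its values were seen), was at 28.1, 41.7 and 29.5 against 101, 35.9 and 39.6, high in gluteal replicate 1 alone. Of 15 glycogen genes 10 were higher (median 0.04), but 5 without longissimus replicate 2 (median -0.03) and 6 after rescaling (-0.07), and without gluteal replicate 2 the median was -0.16. Among them was PPP1R3A, which ties a phosphatase to glycogen, at 4.53, 1.48 and 4.12 against 17.4, 4.97 and 24.9. Muscle glycogen phosphorylase (PYGM) lay at 1248, 1681 and 1898 against 736, 1730 and 1265 FPKM, with overlap.

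Fibre type genes did not separate the muscles. Of 11 kept fast fibre genes 6 were higher (median 0.00), and of 14 slow fibre genes 9 (median 0.16), with no call. Fast fibre transcripts summed to 18165, 7944 and 19969 FPKM for longissimus and 11045, 19091 and 16951 for gluteal muscle. Slow fibre transcripts summed to 7786, 11446 and 7883 against 17645, 6649 and 8696. Longissimus replicate 2 and gluteal replicate 1 were thus low in fast and high in slow transcripts, 1 library of each muscle. Without longissimus replicate 2 the slow median was 0.51, with 11 higher, and without gluteal replicate 1 it was -0.21, with 5 higher, so the sign of the slow fibre difference rests on these libraries. The fast median turned the other way, to -0.18 with 2 of 11 higher without longissimus replicate 2 and to 0.27 with 8 higher without gluteal replicate 1. In Wutou 2 of the 11 fast and 2 of the 14 slow genes were higher in gluteal muscle.

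Several fibre genes had their extreme values in the same 2 libraries. The slow light chain MYL2 measured 370, 1021 and 862 FPKM in longissimus and 2138, 651 and 862 in gluteal muscle, and slow troponin T (TNNT1) 393, 1117 and 609 against 1420, 580 and 773. TPM3, the slow tropomyosin, was at 86.1, 134 and 127 against 286, 94.9 and 82.7, and the oxygen store myoglobin (MB) at 4941, 5446 and 4011 against 9594, 2728 and 4480. TNNC1, MYL3 and CASQ2 had their highest gluteal value in replicate 1 as well, but TNNC1 and CASQ2 were highest among the longissimus libraries in replicate 3. On the fast side, regulatory light chain MYLPF was at 2411, 923 and 2825 against 1535, 3211 and 2463, fast troponin I (TNNI2) at 1682, 722 and 2212 against 1217, 2085 and 1973, and troponin C (TNNC2) at 9543, 3211 and 9054 against 5163, 8311 and 8265. ATP2A1, the fast calcium pump, was at 935, 833 and 979 against 523, 1099 and 1100. ACTN3, the fast alpha-actinin, was lowest in replicate 1 of both muscles, at 130, 179 and 270 against 84.1, 195 and 195. MYL1, CASQ1, MYBPC2, MYOZ1 and EYA1 overlapped likewise, and so did MYH7B, TNNI1, ATP2A2, MYOZ2, CSRP3 and MYBPC1 among the slow genes.

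MYOZ3, a Z-disc protein of fast fibres, was the 1 member of either list with separate groups, at 21.8, 18.9 and 19.4 FPKM in longissimus against 7.65, 18.1 and 12.9. ANKRD2, a stretch-responsive protein of slow fibres, was at 22.1, 86.0 and 31.4 against 35.6, 4.86 and 2.81. Of the myosin heavy chains, MYH1, MYH2, MYH4 and MYH7 each lacked a single reference locus and play no part in the lists. Among related loci, named after their values were seen, MYH6 (MSTRG.10593) was at 854, 4131 and 1345 FPKM against 2233, 1258 and 1330, and a locus that merges MYH13 with 2 further genes (MSTRG.13911) at 1022, 499 and 933 against 493, 953 and 918. Both followed the 2 libraries named above, and near-identical myosin genes may share reads.

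The other contractile lists had fewer members higher than the share of all loci. Of 25 Z-disc and thin filament genes 9 were higher (median -0.07), of 15 thick filament and M-band genes 5 (median -0.07, and 0.11 without longissimus replicate 2) and of 17 calcium handling genes 8 (median -0.03), against 67.8% of all loci. After rescaling the counts were 6, 3 and 5 and the medians -0.17, -0.16 and -0.14, against 51.9%. SMPX, a small stress-responsive muscle protein, was at 16.2, 10.5 and 25.9 FPKM against 29.2, 22.9 and 39.2, higher in gluteal muscle within each replicate number but overlapping as a group. KBTBD13, a thin filament protein that slows relaxation, was at 2.87, 2.58 and 3.01 against 3.68, 3.15 and 4.55. XIRP1 and XIRP2, which bind actin at sites of repair and were named after their values were seen, were at 504, 804 and 176 against 204, 316 and 124 and at 52.5, 36.8 and 23.9 against 17.2, 25.1 and 22.4, with overlap.

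**Figure D5:**
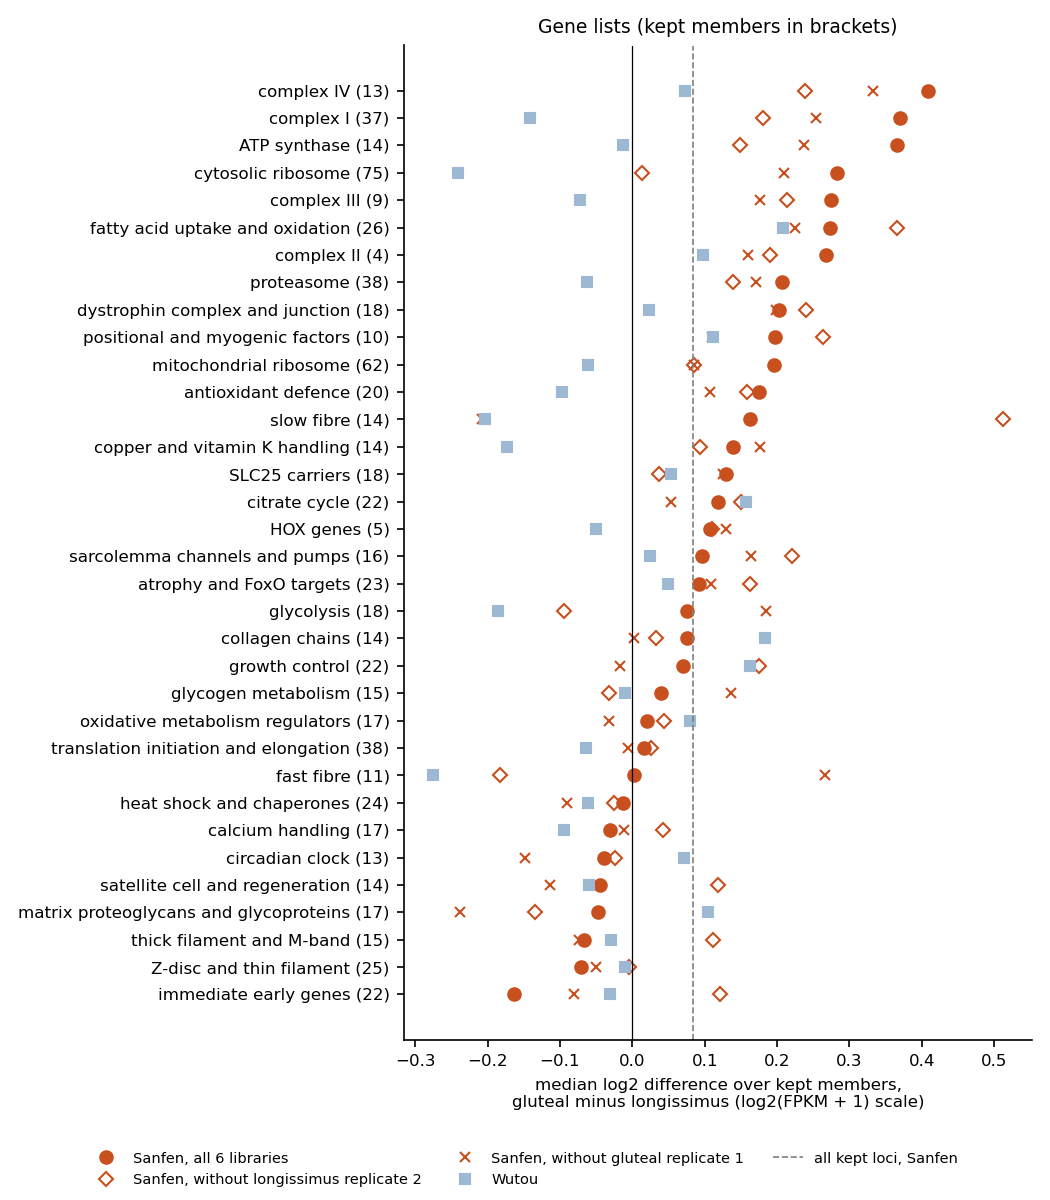
Median log2 difference over the kept members of 34 gene lists (horizontal axis, gluteal minus longissimus on the log2(FPKM + 1) scale; members in brackets): filled circles for all 6 Sanfen libraries, open diamonds without longissimus replicate 2, crosses without gluteal replicate 1, squares for Wutou. The dashed line is the Sanfen median of all kept loci, 0.08; the slow fibre list moves from 0.16 to 0.51 and -0.21 when these libraries are left out, and the fatty acid list stays between 0.22 and 0.37.

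The protein-making and protein-degrading machines also had many small positive differences. Cytosolic ribosomal proteins were higher at 72 of 75 kept genes (median 0.28), with RPL22 at 34.2, 14.5 and 27.2 FPKM in longissimus against 49.8, 45.4 and 37.6 in gluteal muscle (log2 difference 0.85, adjusted p = 0.9998). This rested on longissimus replicate 2, whose ribosomal transcripts summed to 5090 FPKM against 8109 and 8372 in the other longissimus libraries and 7480 to 9347 in the gluteal ones. Without it 40 of 75 were higher, against 69.3% of all loci, and the median was 0.01. After rescaling 66 were higher with a median of 0.18, against 51.9% of all loci. Mitochondrial ribosomal proteins were higher at 51 of 62 (median 0.20), with MRPL34 at 0.235, 0.625 and 6.06 against 16.6, 7.62 and 2.95 and MRPS25 at 5.73, 3.43 and 6.96 against 12.7, 7.93 and 10.8. Without the same library their median was 0.09, against 0.11 for all loci. Without gluteal replicate 1 it was also 0.09, against 0.05 for all loci. After rescaling it was 0.10, against 0.01. Translation factors were level (21 of 38 higher, median 0.02), with EEF1A1 at 234, 184 and 211 against 115, 211 and 98.9.

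The proteasome, which degrades ubiquitin-tagged proteins, had 35 of 38 subunits higher (median 0.21), against 67.8% of all loci. The groups did not overlap at 7 of them (18.4%), gluteal above in each case, beside 6.34% of all loci. After rescaling 30 were higher with a median of 0.10, against 51.9% of all loci, and 4 had separate groups, beside 341 of all 10834 loci. PSMB1 measured 21.8, 17.8 and 20.7 FPKM in longissimus and 27.8, 30.9 and 24.7 in gluteal muscle (log2 difference 0.45, adjusted p = 0.9998), and PSMB3, named after its values were seen, 27.3, 28.5 and 26.4 against 41.0, 32.9 and 32.6. The list level was 0.00, -0.24 and -0.08 in longissimus and 0.20, 0.08 and 0.04 in gluteal muscle, separate by little on the deposited scale. List levels were not recomputed after rescaling, so this separation may not hold there. The rescaling divided longissimus libraries by 0.98, 1.07 and 0.99 and gluteal ones by 1.17, 1.11 and 1.01. In Wutou 15 of the 38 were higher (median -0.06).

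Genes of muscle wasting were near the share of all loci. Of 23 kept atrophy and FoxO target genes 14 were higher (median 0.09). Groups did not overlap at 2 above (8.70%) and 1 below (4.35%), beside 6.34% and 1.16% of all loci. After rescaling 1 was separate above and 3 below, and FKBP5 overlapped. The muscle ubiquitin ligase FBXO32 was at 48.4, 15.7 and 46.6 FPKM against 33.7, 33.2 and 35.4, with overlap, and FBXO30 at 11.1, 11.8 and 10.0 against 0.401, 8.18 and 9.03 (both named after their values were seen). KLF9 and FKBP5, which respond to glucocorticoids, had gluteal values above, at 0.582, 0.322 and 0.704 against 1.32, 1.71 and 1.26 and at 3.34, 2.0 and 3.58 against 7.0, 3.76 and 4.36. KLF9 was kept through the gluteal libraries only, which fixed its order. BNIP3L, a receptor for the removal of mitochondria, was at 1.21, 2.05 and 2.59 against 1.0, 1.23 and 1.0, with overlap. BAG3, a co-chaperone of stretched muscle, was at 6.61, 8.18 and 5.16 against 4.02, 2.12 and 5.77 in a chaperone list that was level (11 of 24 higher, median -0.01).

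No positional factor passed the test, and a few had groups that did not overlap on the deposited scale. Of 5 kept HOX genes 1 was separate above (20%) and 1 below (20%), beside 6.34% and 1.16% of all loci. Of 10 other kept factors 1 was separate below (10%). After rescaling 0 HOX genes were separate above, so HOXC10 overlapped, and 1 was separate below. ZIC1, which patterns dorsal structures in the embryo, was listed at 1.74, 2.21 and 1.52 FPKM in longissimus and at 0, 0.524 and 0 in gluteal muscle (log2 difference -1.29, adjusted p = 0.9998). It was kept through the longissimus libraries only, which fixed this order, and its Wutou groups overlapped (0 to 1.58 and 0 to 0.915). HOXD1, an anterior homeobox gene, was at 1.32, 1.82 and 2.66 against 1.25, 1.14 and 0.468 (-0.59, adjusted p = 0.9998). HOXC10, a homeobox gene of the lumbar level and the hindlimb, lay the other way, at 0.798, 1.59 and 1.67 against 1.82, 2.67 and 2.07 (0.45, adjusted p = 0.9998). The Wutou groups were separate in the same directions for HOXD1 (2.13 to 3.09 in longissimus, 0.735 to 1.11 in gluteal muscle) and HOXC10 (1.52 to 1.63 and 1.75 to 2.79). Of 39 HOX genes 5 were kept and 3 of these were higher; of the other positional and myogenic factors 8 of 10 kept were higher (median 0.20).

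Genes of growth, regeneration and activity overlapped between the muscles. Of 22 growth control genes 12 were higher (median 0.07), with FSTL1, a secreted protein of muscle, at 15.4, 21.8 and 19.9 FPKM against 42.2, 28.8 and 20.9. Of 14 satellite cell and regeneration genes 6 were higher (median -0.04, and 0.12 without longissimus replicate 2). Myogenin (MYOG), the factor that drives muscle precursors to differentiate, was at 14.3, 52.6 and 12.4 in longissimus and 1.94, 25.4 and 1.28 in gluteal muscle, lower in gluteal muscle within each replicate number and highest in replicate 2 of both muscles. Immediate early genes, switched on within minutes by stress or contraction, had 7 of 22 higher (median -0.16). Without longissimus replicate 2, in which their summed FPKM was 236 against 120 to 186 in the other 5 libraries, 13 were higher and the median was 0.12. MYC was at 1.52, 2.66 and 1.04 against 0.956, 1.38 and 0.707. Clock genes were level (5 of 13 higher, median -0.04), with CLOCK itself at 2.13, 1.96 and 1.49 against 1.54, 1.49 and 1.28.

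Copper and vitamin K genes were listed around COMMD1 and VKORC1, so the list is no independent evidence on those 2. Of 14 kept members 12 were higher (median 0.14), and 4 had gluteal values all above the longissimus ones (28.6%, beside 6.34% of all loci). After rescaling 10 were higher with a median of 0.06, against 51.9% of all loci, and 3 were separate, beside 341 of all 10834 loci. COMMD1 and VKORC1 are among the separate members in both counts, so the way the list was made raised these shares in advance. COX17, which delivers copper to cytochrome c oxidase, was at 40.5, 8.03 and 26.8 FPKM against 49.2, 47.6 and 44.9, and ATP7A, the copper pump mutated in Menkes disease, at 3.30, 2.93 and 3.53 against 4.58, 3.59 and 3.79 (both named after their values were seen). The other COMMD genes kept, COMMD3 to COMMD7, all overlapped, for example COMMD7 at 7.54, 7.43 and 8.30 against 7.68, 9.91 and 8.39. Of 20 antioxidant genes 16 were higher (median 0.17), with mitochondrial thioredoxin TXN2 at 26.3, 25.5 and 18.9 against 38.3, 29.9 and 27.7. SLC25A12, the mitochondrial aspartate and glutamate carrier, was at 48.7, 33.7 and 34.9 against 42.3, 65.8 and 48.7, and TFAM, the factor that packs mitochondrial DNA, at 0.153, 0.957 and 1.13 against 1.57, 1.52 and 1.37. The oxidative regulator list that holds TFAM was level (9 of 17 higher, median 0.02).

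At the fibre surface, dystrophin complex and junction genes were higher at 12 of 18 (median 0.20), near the 67.8% of all loci. Groups did not overlap at 3 of them, gluteal above (16.7%, beside 6.34% of all loci). After rescaling 11 were higher (median 0.11), against 51.9% of all loci, and 0 were separate. The dystrophin partner DTNA was at 2.26, 2.23 and 2.78 FPKM against 3.11, 4.15 and 3.08. ATP1B1, a subunit of the sodium pump, was at 8.16, 5.16 and 6.91 against 14.9, 7.61 and 9.01. Around the fibres, collagen chains (10 of 14 higher, median 0.08) and matrix proteoglycans and glycoproteins (8 of 17, median -0.05) overlapped. The tendon proteoglycan FMOD was at 7.34, 8.86 and 17.7 against 9.18, 3.28 and 3.78. Of 12 tendon and cartilage markers 4 were kept, and their level was highest in gluteal replicate 1 (0.92) and longissimus replicate 3 (0.65), with the other libraries at -0.64 to -0.14.

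Markers of other cell types overlapped between the muscles as lists. Endothelial markers were higher at 8 of 10 (median 0.13), with PECAM1 at 20.3, 22.1 and 27.2 FPKM against 33.0, 41.3 and 27.2. Smooth muscle and pericyte markers were higher at 7 of 10 (median 0.18), though the pericyte gene RGS5 was at 9.0, 11.1 and 2.04 against 2.47, 2.96 and 1.55. Fibroblast markers were higher at 6 of 10 (median 0.06, and 2 of 10 after rescaling), with DPT, a matrix protein of fibroblasts, below in gluteal muscle at 7.18, 6.33 and 5.17 against 4.86, 4.88 and 3.87. Macrophage markers were higher at 3 of 8 (median -0.03), CD14 at 3.65, 2.54 and 1.85 against 0.521, 3.04 and 1.53. All 4 kept Schwann cell and nerve markers were higher (median 0.27), CNP at 2.79, 4.14 and 3.77 against 4.0, 4.3 and 4.97. Their part in any gene group above was not tested.

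Long non-coding RNAs, the subject of the series, added no call. Of 2712 reference genes of this class 173 were kept, 118 of them higher (median 0.09), against 67.8% of all loci. Their groups did not overlap at 8 above (4.62%) and 2 below (1.16%), near the 6.34% and 1.16% of all loci. The 2941 listed loci assembled without a name held 24.6% of the FPKM of all listed loci in longissimus and 27.2% in gluteal muscle, and 1055 of them were kept. The groups of the kept ones did not overlap at 75 above (7.11%) and 6 below (0.569%), beside the same shares of all loci, and 0 were called. Named assembled loci (1349 kept) gave the ZNF644 call and had 87 above (6.45%) and 19 below (1.41%), also near the shares of all loci.

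The muscle contrasts of Sanfen and Wutou were set side by side. Across the 10834 loci, which are not independent replicates, the log2 differences of the 2 strains had a correlation of 0.08, and the 2 contrasts share no library. Among loci without overlap in both strains, which in Wutou alone number 955 above (8.81%) and 481 below (4.44%), 79 lay above and 14 below in both, 21 lay above in Sanfen and below in Wutou, and 4 the reverse. COX7C was 1 of the 21, at 143 to 195 FPKM in Wutou longissimus against 120 to 129 in gluteal muscle, as were NDUFS8, NDUFA7, COMMD1 and ZNF24. KANK1, MUT, SLC27A4 and HOXC10 were above in both strains and RNF115, HDGF, SRPK3, CDK9 and HOXD1 below in both. These counts and orders are on the deposited scale. After rescaling the Sanfen groups of MUT and HOXC10 overlapped, and the Wutou order was not recomputed. The interaction test called ZNF24 only, with 266 loci (2.46%) at an unadjusted p under 0.05. After ZNF24 and COMMD1, the named genes with the smallest interaction p were BTBD9, the ZNF644 locus, KIAA0513 and COX7C, and none of them passed in the main fit. BTBD9 in Wutou was lower in longissimus (0.583 to 0.795 FPKM) than in gluteal muscle (1.14 to 1.41). Its interaction passed with 1 FPKM required in all 6 Sanfen libraries.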

How the data were processed

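Libraries were prepared from Trizol RNA with Illumina kits, per the labels' protocols, and the submitters' processing notes name cutadapt, Bowtie2 and TopHat2. The authors deposited 1 FPKM value for each locus and library, per the file headers; genome build, annotation and depth are not given in the sources used here. Gene names were updated from RefSeq (13899 of 19895 reference loci matched). Tests used limma 3.58.1 in R 4.3.3 with its mean-variance trend on log2(FPKM + 1), 1 model of 4 groups and 12 libraries (8 residual degrees of freedom), and Benjamini-Hochberg adjustment over 10834 loci at 0.05. Differences on this scale understate the change of low loci. Lists were described by counts and medians, without a test.

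The members and lists were chosen with earlier results of these data known. Genes were named if called, or among the 15 with the smallest p in each direction (mean of at least 5 FPKM in the higher group, no overlap), by smallest p in a list, as fibre type or muscle markers, by interaction p, or by abundance; others are marked. Replicate numbers were checked as pairs. Deviations from the group means correlated at 0.23, 0.101 and 0.158 for equal numbers, each above 0.1 but replicate 2 only just. For other numbers they correlated at -0.14 to -0.01. Deviations within a muscle sum to 0 at each locus, so positive values for equal numbers push the others below 0. The negative values are thus no separate support. The pairing comes from the values, not the labels. On simulated data for this comparison (200 of 10834 loci changed), a log2 change of 1 was recovered at 56% and of 2 at 91%, with 11 and 7 other loci called. These values were drawn independently, with 1 spread per locus shared by the 4 groups, and without pairs or a floor at 0. Recovery in the real libraries may therefore differ. Alternatives were a pseudocount of 0.1, 4 other filters, 2 rescalings, array weights, the block, the 6 Sanfen libraries alone and each library left out; rescaled overlap counts and shares were added after seeing the data. Tables and figures used Python 3.11.15.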

Additional observations from a re-analysis of the deposited data

Results flagged for a closer look

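ZNF24 is singled out because the muscle contrast differed between the strains by the interaction term of the same limma model. Its log2 difference, gluteal minus longissimus, was 1.59 in Sanfen and -1.16 in Wutou, so the Sanfen value minus the Wutou value was 2.743 (SE 0.23, adjusted p = 0.00096, n = 3 libraries per group). The locus was kept through its Sanfen gluteal libraries only, so the order of the Sanfen groups was fixed by the filter. Every Wutou gluteal library lay below every Wutou longissimus library. No cause of this was tested.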

How the results depend on the processing

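The number of loci called between the Sanfen muscles was 3. It was 5 without a filter, 1 with a filter at 5 FPKM or with 1 FPKM required in all 6 libraries, and 1 with the replicate block, on 12 libraries (ZNF24) and on 6 (ZNF70). Leaving out a library gave 0 (Sanfen gluteal replicate 2; 397 loci at an unadjusted p under 0.05) to 4. The number called for the difference between strains was 1. It was 2 without a filter, with all 6 libraries at 1 FPKM or with quantile normalization, 0 with the filter at 5 FPKM (93 at an unadjusted p under 0.05), and 1 to 3 without a library, with 3 without Sanfen gluteal replicate 1 and 2 without Wutou longissimus replicate 1. The block left it at 1. Rescaling by the median of ratios, added after seeing the data, changed the loci without overlap from 687 to 341 above and from 126 to 315 below, and the share of loci higher in gluteal muscle from 67.8% to 51.9% (51.6% with quantile normalization). Leaving out a Sanfen library kept that share at 60.2% to 72.1%. Of 23 genes given a log2 difference, all 23 kept their direction in every alternative run and 7 lost or gained a call. The kept direction was mostly fixed in advance and is no support. Other filters, the block, the Sanfen-only fit and leaving out Wutou libraries do not alter the Sanfen difference. Most of these genes also had groups without overlap, whose order cannot turn when a Sanfen library is left out. The losses are given beside ZNF24, COMMD1 and the ZNF644 locus, and the gains beside VKORC1, PNRC1, TMBIM6 and ZNF70. The causes were not tested. Several list medians changed sign without a library or after rescaling, among them those of slow fibre, fast fibre and glycogen genes. With depth unknown, the counting error of low values cannot be given.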

Other observations

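Several HOX genes lay below the filter of 1 FPKM and so outside the loci compared, and they are given as values only, chosen after these were seen. The HOX clusters are read along the body axis, and genes near their end are known from the hindlimb. HOXA10 had 0.298, 0.253 and 0.605 FPKM in Sanfen longissimus against 0.854, 1.0 and 0.878 in gluteal muscle. In Wutou it was at 0.443, 0.383 and 0.576 against 0.858, 1.12 and 0.968, so the muscles were separate in both strains. HOXA11 was at 0, 0.0104 and 0.0295 against 0.265, 0.445 and 0.0982 in Sanfen, and at 0.00976, 0.0101 and 0.0285 against 0.144, 0.628 and 0.319 in Wutou. HOXC11 had a listed value of 0 in each Sanfen longissimus library and 0.0757, 0.585 and 0.114 in gluteal muscle, with 0, 0 and 0.0457 against 0.352, 0.735 and 0.252 in Wutou. HOXC8, which lies earlier in its cluster, ran the other way in Wutou, at 0.434, 0.723 and 0.470 against 0.0387, 0.0133 and 0.0273. In Sanfen HOXC8 was at 1.05, 1.09 and 0.203 against 0.468, 0.0347 and 0.0903, with overlap. Place in the cluster did not order all HOX genes. HOXA3, an earlier gene than HOXA10, was also above in gluteal muscle in both strains. Its values were 0.114, 0.190 and 0.186 against 0.222, 0.348 and 0.238 in Sanfen. In Wutou they were 0.199, 0.150 and 0.123 against 0.232, 0.228 and 0.225. HOXA7 was above in Wutou, at 0.276, 0.276 and 0.441 against 0.666, 0.705 and 0.565, and overlapped in Sanfen.

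Some abundant loci without a name varied more between replicate numbers than between muscles. MSTRG.9671 had 332, 1156 and 6960 FPKM in Sanfen longissimus against 2163, 1002 and 17473 in gluteal muscle, and MSTRG.6834 at 973, 1772 and 7736 against 2621, 1549 and 14361. Replicate 3 was the highest library of each muscle at both loci. In Wutou replicate 3 was the lowest of each muscle, at 16.9 and 60.9 FPKM for MSTRG.9671 and 133 and 195 for MSTRG.6834.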
